A study of Mus musculus with 3 samples.

Results

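The intestine primordium and the esophagus primordium of the mouse embryo were compared at E11.5. The 2 arrays were chosen by their titles, out of 3 in the series, the other being the stomach primordium of the same stage. All were prepared from ICR embryos with no genetic change or treatment named, total RNA was labelled with Cy3, and each organ was hybridised to 1 one-colour Agilent mouse expression array. The organ was taken from the title and tissue label of each array, since the extraction text speaks of stomach for every sample, and neither the number of embryos nor any pooling is given. With 1 array per organ there was no replicate check and no test, and having so few arrays limits how precise any value can be. In whole organs, fewer cells of a type and less RNA per cell cannot be told apart.

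The gut tube forms from endoderm, which gives the epithelium, and from the mesoderm around it, which gives the smooth muscle and connective tissue. Its anterior end becomes the esophagus, beside the trachea and behind the heart, under Sox2 and its partners, and its posterior part becomes the intestine under the homeobox factor Cdx2. Hox genes, which lie in 4 clusters, are expressed along the body axis in the order of their position in the cluster, so that genes of the low-numbered groups reach furthest forward and those of the high-numbered groups are kept to the tail end.

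A level is the log2 processed signal of a gene's probe minus the array's 75th percentile, so a level of 0 is a signal equal to that percentile, and levels of different genes are not compared. A difference is the intestine level minus the esophagus level, and a single value given for a gene with no organ named is its difference. The 75th percentile lay at 1023 signal units on the intestine array, 393 on the esophagus array and 334 on the stomach array, between 67.9% and 74.0% of spots were well above background, and no spot was saturated. Spots of 1 probe varied with a median SD of 0.093 log2 units in esophagus and 0.073 in intestine. The difference varied more between probes of 1 gene, with a median SD of 0.46 over 4695 genes with 2 or more probes. The median difference also moved with the signal, from −0.26 in the dimmest genes to 0.21 in genes with a mean level of 2 to 4 and −0.26 in the brightest.

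Of 14458 genes measured on at least 1 of the 2 arrays, 253 (1.75%) exceeded esophagus at least 4-fold in intestine and 535 (3.70%) fell short of it by that much. For 11578 (80.1%) the difference, or its bound where 1 organ alone was measured, was under 2-fold. Of the higher genes 175 were measured on both arrays, and of the lower genes 420. The other 78 and 115 were measured in 1 organ only, and their difference is a bound. It was taken from the lowest signal well above background on the dim array or the dim probe's own signal, whichever was higher. A bound is a minimum, set to 0 where the measured organ did not exceed that value, so the gene may differ by more. Over all genes, 1178 were measured in intestine only and 184 in esophagus only. The lowest level well above background was −5.81 in esophagus and −6.97 in intestine, so higher bounds had to clear a higher level. Among genes measured on both arrays, 10 were higher and 95 lower at mean levels under −4. These counts were 68 and 155 from −4 to −2, and 57 and 120 from −2 to 0. They were 29 and 39 from 0 to 2, 9 and 10 from 2 to 4, 1 and 1 from 4 to 6, and 1 and 0 from 6 up. The split between higher and lower also followed the scaling. It was 367 and 374 after quantile normalization, 455 and 296 with each array centred on its median, and 1445 and 180 with the arrays scaled on their spike-in controls. Centring moved the median of all genes up by 0.50 log2 units and spike-in scaling by 1.08, from 0.10, so that higher and lower are meant here relative to the 75th percentile.

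**Figure D1:**
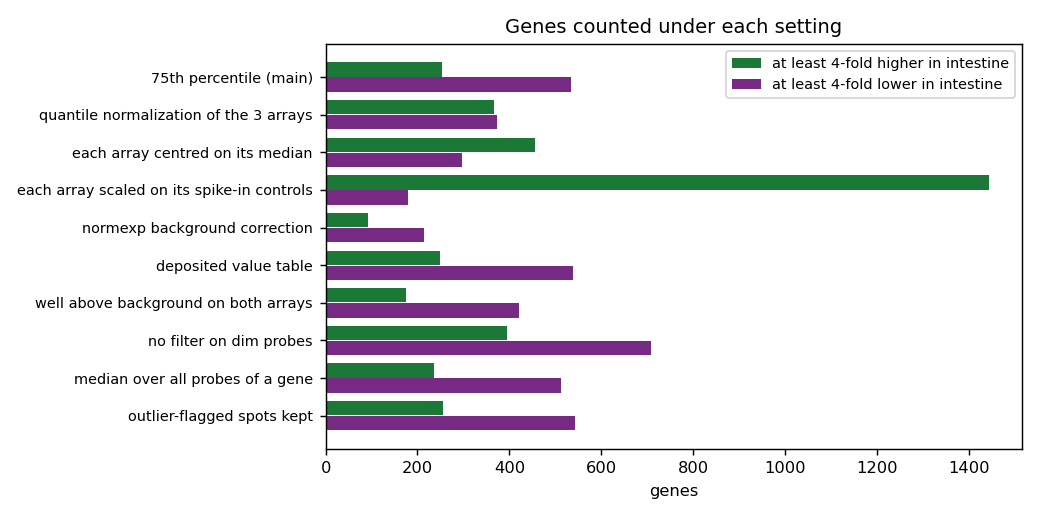
Number of genes at least 4-fold higher (green) and at least 4-fold lower (purple) in intestine than in esophagus, under the main setting and each of 9 alternatives. The lower genes outnumber the higher ones under the main setting (535 and 253), and the order turns round with median centring (296 and 455) and spike-in scaling (180 and 1445).

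The markers of the organs lay on the side their labels name. Cdx2, the homeobox factor of the intestinal endoderm, stood at 1.85 in intestine and −4.37 in stomach and was not well above background (dim) in esophagus, a difference of at least 202-fold. Vil1, which encodes the brush border protein villin, stood at 0.62 in intestine, −2.85 in stomach and −5.58 in esophagus, 74.0-fold apart, and its other probe gave a difference of 5.95. Nkx2-3, a homeobox factor of gut mesenchyme, stood at 2.94, −0.86 and −3.89 in the same order. In each of these genes intestine was the highest organ and stomach lay between. Sox2 stood at 1.04 in esophagus, 0.57 in stomach and −2.60 in intestine, 12.5-fold lower in intestine than in esophagus. Foxd1, a forkhead factor of mesenchyme, stood at 1.93 in esophagus, against −5.15 in stomach and −5.23 in intestine. Sox2 was thus low in intestine alone, and Foxd1 was high in esophagus alone.

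**Figure D2:**
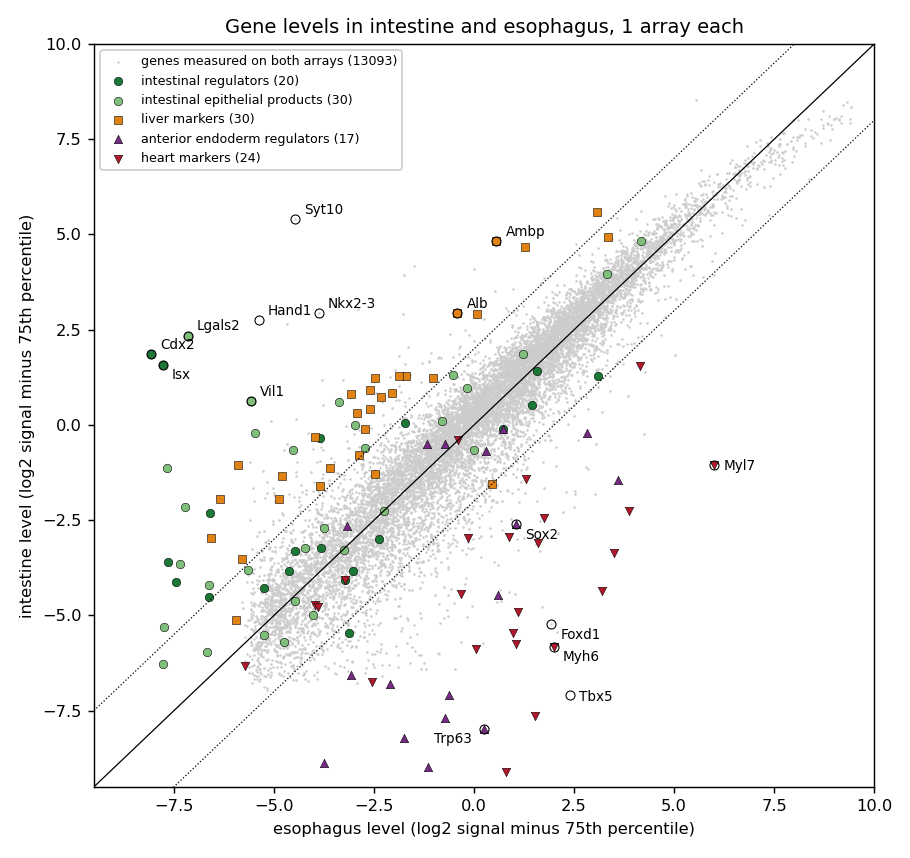
Level of each gene in esophagus (horizontal) and intestine (vertical), both as log2 signal minus the array's 75th percentile, with 5 gene lists in colour and selected genes ringed. The solid line marks equal levels and the dotted lines a 4-fold difference. Liver markers lie above the upper dotted line in most cases and heart markers below the lower one. Genes not reported here are not drawn.

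Among 21 measured regulators of intestinal endoderm, 6 stood at least 4-fold above esophagus and 1 at least 4-fold below it. Their median difference was 0.97, but it turned to −0.25 after normexp background correction and to −0.16 over members measured on both arrays. Isx, an intestine-specific homeobox factor, stood at 1.57 in intestine and −4.65 in stomach and was not well above background in esophagus, at least 167-fold apart. Onecut2, a cut homeobox factor, stood at −0.34 in intestine, −1.32 in stomach and −3.86 in esophagus, so that stomach lay nearer to intestine. Hnf4a, a nuclear receptor of gut and liver endoderm, was at least 11.3-fold higher in intestine. The GATA factors of the gut did not share this side, with differences of −0.83 for Gata4, −0.80 for Gata5 and −0.92 for Gata6, though on the spike-in scale these were 0.25, 0.28 and 0.16. Prox1, also a lymphatic factor, was the member at least 4-fold lower (−2.34).

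Of 30 measured products of the intestinal epithelium, 10 were at least 4-fold higher and 0 at least 4-fold lower, and the median difference was 1.01 against 0.10 over all genes. Lgals2, a galectin, stood at 2.35 in intestine and −4.33 in stomach and was not well above background in esophagus, the largest bound in this direction at a minimum of 284-fold. Fabp2, the intestinal fatty acid binding protein, stood at −0.22 in intestine, −3.86 in stomach and −5.48 in esophagus. Fabp1, its liver-type relative, stood at 0.01, −4.66 and −2.98. Lgals4 (3.97) and Tspan8 (3.86) were measured on both arrays, and Tff3, a trefoil peptide of goblet cells, was at least 25.7-fold higher. Enzymes and transporters of the mature brush border did not stand apart. Sis, the sucrase-isomaltase gene, differed by −0.27, the lactase gene Lct by −0.03 and the alkaline phosphatase gene Alpi by −0.97. Genes shared by simple epithelia had a median difference of −0.20 (0.61 on the spike-in scale), and of 28 measured none was at least 4-fold higher and 3 were at least 4-fold lower, Elf5 and Lamb3 among them. Among those within 2-fold were the keratin genes Krt8 (0.62), Krt18 (0.65) and Krt19 (0.66), and the adhesion genes Epcam (0.92) and Cdh1 (−0.67).

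The bases before the start sites of these genes are shown because several higher genes share short motifs there. The 250 bases come from RefSeq (GRCm38.p6), 5′ to 3′ along the gene's strand. Capitals mark, on either strand, the CDX motif TTTATG, the string GTTAAT, the GATA motif AGATAA and the strict HNF4 motif CAAAGTCCA. The Lgals2 stretch lies at chr15:78855530-78855779 on the minus strand, Fabp1 at chr6:71199629-71199878 and Vil1 at chr1:74409134-74409383, both on the plus strand.
Lgals2: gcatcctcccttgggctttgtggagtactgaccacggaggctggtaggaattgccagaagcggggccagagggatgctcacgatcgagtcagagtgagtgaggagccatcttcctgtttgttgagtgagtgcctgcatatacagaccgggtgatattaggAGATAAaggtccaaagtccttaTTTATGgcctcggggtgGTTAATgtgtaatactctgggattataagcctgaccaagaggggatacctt
Fabp1: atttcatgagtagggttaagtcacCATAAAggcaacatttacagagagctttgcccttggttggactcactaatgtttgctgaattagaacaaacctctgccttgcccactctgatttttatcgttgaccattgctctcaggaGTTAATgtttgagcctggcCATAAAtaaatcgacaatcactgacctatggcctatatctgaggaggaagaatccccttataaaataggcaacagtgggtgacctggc
Vil1: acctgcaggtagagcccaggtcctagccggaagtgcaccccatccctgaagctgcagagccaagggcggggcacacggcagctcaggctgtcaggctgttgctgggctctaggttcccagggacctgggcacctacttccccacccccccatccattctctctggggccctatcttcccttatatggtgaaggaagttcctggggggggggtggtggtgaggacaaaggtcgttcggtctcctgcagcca
Lgals2 and Fabp1 each hold a CDX motif and GTTAAT, and Lgals2 a GATA motif as well. The CDX motif was in 32% of the 25 intestinal epithelial products searched and in 28.6% of the 21 heart markers searched. Over all genes it was in 8.67%. Vil1 holds none of the 4 marked motifs in this window. The looser HNF4 form CAAAGNNCA was not marked, and Lgals2 holds it on the other strand.

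Among 11507 measured genes with a RefSeq promoter, 191 of those at least 4-fold higher and 390 of those at least 4-fold lower could be searched, with 24 motifs chosen after the differences were known. GTTAAT was present in 17.3% of the higher genes, 7.95% of the lower genes and 5.87% of all. AGATAA was in 16.8%, 10% and 8.34%, the forkhead motif TGTTTAC in 7.85%, 1.54% and 2.95%, and its variant TGTTTGC in 12.6%, 5.38% and 4.06%. TTTATG was in 12.6%, 10.3% and 8.67%, TTTATNG in 14.7%, 12.3% and 8.51%, and the TATA box TATAAA in 16.8%, 14.1% and 10.2%. The GC box GGGCGG went the other way, at 34.6%, 50.3% and 58.4%. The MEF2 motif of muscle genes was in 1.05% of the higher genes, 5.90% of the lower and 2.31% of all, and the E-box CAGCTG in 11.0%, 20.5% and 14.7%. Shares lay close together for the SOX motif ACAATG (8.38%, 9.74% and 8.43%), the TEAD motif CATTCC (14.7%, 12.8% and 13.1%) and the T-box motif GGTGTG (17.8%, 16.4% and 18.4%). The looser HNF4 motif CAAAGNNCA was in 11.0%, 4.10% and 5.69%. Of the remaining 10 motifs the most frequent was the AP-1 motif TGAGTCA, at 6.28%, 4.10% and 4.15%. Base composition moved with these shares, since the median GC content was 52.0% in the higher genes, 57.5% in the lower and 58.8% in all, with a median of 5, 10 and 14 CpG. Its part in the shares was not tested.

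Liver genes were among the genes higher in intestine. Of 31 measured liver markers, 27 exceeded esophagus at least 4-fold and 1 fell short of it by that much. The list median was 3.0. Their summed level, in multiples of the 75th percentile, came to 174 in intestine, but to 31.0 in stomach and to 28.7 in esophagus. Alb, the serum albumin gene, stood at 2.93 in intestine, −2.45 in stomach and −0.42 in esophagus. Ahsg, a secreted liver glycoprotein, stood at 0.91, −4.59 and −2.61, and the fibrinogen chain gene Fgb at 1.30, −3.14 and −1.71. Stomach was the lowest organ in 16 of the 27 higher liver markers, these 3 among them. It lay between the organs in 7, as in Ambp and Apoa1, and 4 were dim in stomach and esophagus alike. Serpinc1, the antithrombin gene, was the exception with a difference of −2.01, but its other probe gave 3.21. Rbp4, the plasma retinol carrier, differed by 3.40, and the alpha-fetoprotein gene Afp, also made by yolk sac, by 2.52. Of 19 yolk sac and visceral endoderm markers 8 were at least 4-fold higher, 4 of them also on the intestinal or liver lists by name (Afp, Apob, Ttr and Hnf4a). The part of liver or yolk sac tissue in the intestine sample was not tested.

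Anterior regulators differed in the reverse direction. Of 18 measured anterior endoderm regulators, 13 were lower in intestine by 4-fold or more and 0 higher by that much. Their median difference was −4.17, against −2.74 after normexp correction and −1.0 over the 9 members measured on both arrays. Trp63, the regulator of basal squamous epithelium, stood at 0.25 in esophagus and −2.21 in stomach and was not well above background in intestine. Pax9, a pharyngeal factor, stood at −0.72 and −3.66 and was also dim in intestine. Foxa2, a pioneer factor of endoderm, stood at 2.82 in esophagus, 2.47 in stomach and −0.21 in intestine, whereas its relative Foxa1 differed by 0.24. Of the 6 Iroquois homeobox genes, 4 were at least 4-fold lower. Irx1 stood at 2.85 in esophagus, −2.34 in stomach and −1.15 in intestine, and Irx4 and Irx6 differed by −1.07 and −0.81.

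Basal and squamous genes of the esophagus lining were lower in intestine too, with 10 of 27 at least 4-fold lower, none at least 4-fold higher and a median of −1.70. Anxa8, an annexin, stood at 2.08 in esophagus, −0.75 in stomach and −5.45 in intestine. Krt5, the basal keratin, stood at −0.65, −2.52 and −4.47, and Krt15 at 1.65, 0.00 and −2.53. These values step down from esophagus through stomach to intestine. Krt14, the usual partner of Krt5, differed by 0.19, and Sfn by 0.83. The claudins, which seal the junctions between epithelial cells, split by member. Cldn18 (at least 9.27-fold), Cldn10 (−2.77) and Cldn1 (−2.23) were lower in intestine, and Cldn15, at −0.67 in intestine, −2.04 in stomach and −3.78 in esophagus, was higher.

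**Figure D3:**
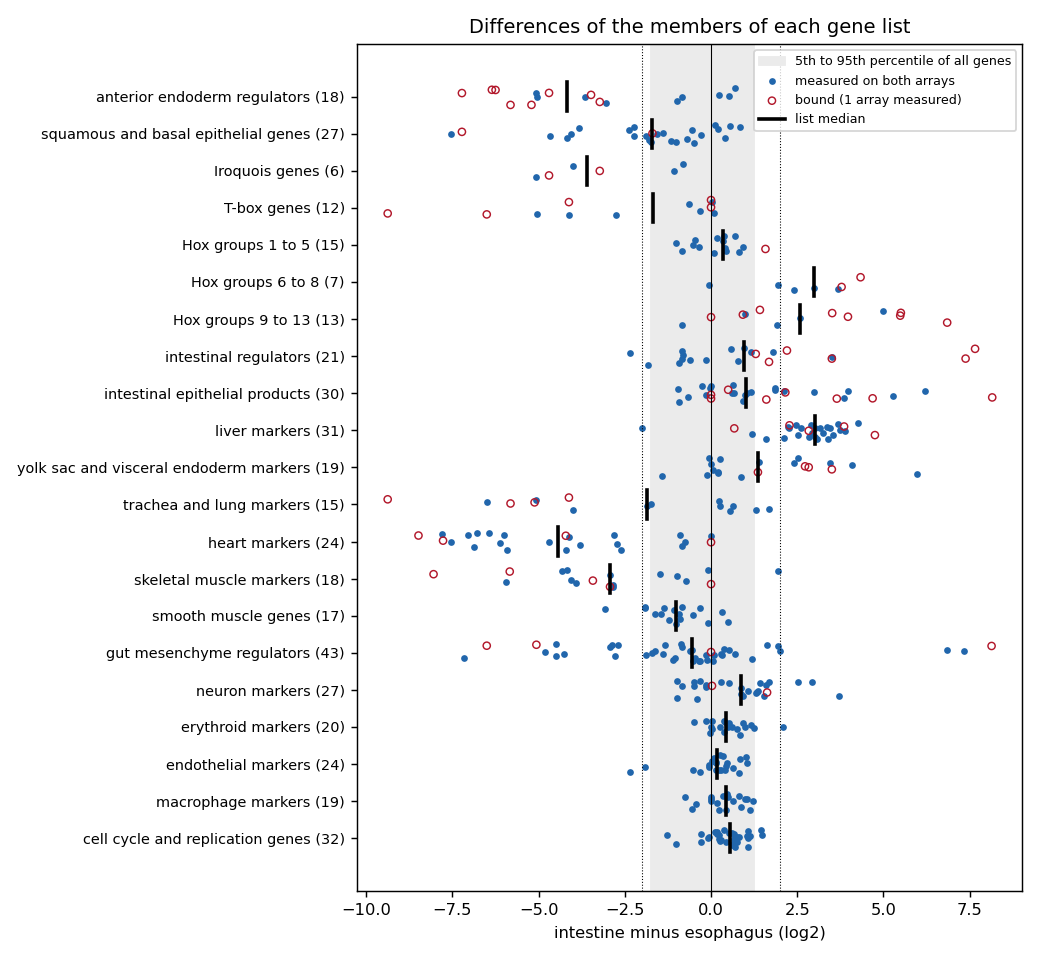
Difference (intestine minus esophagus, log2) of each measured member of 21 gene lists, with the number measured in brackets. Filled points were measured on both arrays, open points are bounds, bars are list medians and the grey band holds the middle of all genes. Liver markers and Hox groups 6 to 13 lie to the right, and heart, skeletal muscle and anterior endoderm genes to the left. Members not reported here are counted and enter the medians but are not drawn.

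Of the lists, the heart markers held the most genes at least 4-fold lower in intestine. Of 24 measured heart markers 19 lay at least 4-fold below esophagus and 0 above it by that much. The list median was −4.45. Their summed level came to 146 in esophagus, but to 7.12 in stomach and to 5.75 in intestine. Myl7, the atrial myosin light chain, stood at 6.01 in esophagus, 0.16 in stomach and −1.05 in intestine. Tnnt2, cardiac troponin T, stood at 3.49, −2.31 and −3.37, and Myh6, the atrial myosin heavy chain, at 1.99, −4.59 and −5.82. In these genes stomach was close to intestine and esophagus stood alone. Of the 19 lower heart markers, stomach lay between the organs in 12, nearer to intestine in 11 of them. Levels under their array's lowest level well above background were raised to it for this count. Csrp3 was lower by at least 357-fold and Sln by at least 218-fold, and both were dim in stomach as well. Tbx5, a T-box factor of heart and lung, stood at 2.40 in esophagus and −1.56 in stomach and was at least 663-fold lower in intestine. Myl3 was lower by the representative probe (−3.81), but its other probe gave −0.34. The part of heart tissue in the esophagus sample was not tested.

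The 250 bases before the start of Myl7 (chr11:5898783-5899032, minus strand) and of the first of 2 listed starts of Tnnt2 (chr1:135836084-135836333, plus strand) are shown as examples of this block. Capitals mark the CArG box and the MEF2, TEAD and GATA motifs on either strand. Of the 21 heart markers searched, 14.3% held the CArG box, 4.76% the MEF2, 38.1% the TEAD and 23.8% the GATA motif. Over all genes these shares were 1.51%, 2.31%, 13.1% and 8.34%.
Myl7: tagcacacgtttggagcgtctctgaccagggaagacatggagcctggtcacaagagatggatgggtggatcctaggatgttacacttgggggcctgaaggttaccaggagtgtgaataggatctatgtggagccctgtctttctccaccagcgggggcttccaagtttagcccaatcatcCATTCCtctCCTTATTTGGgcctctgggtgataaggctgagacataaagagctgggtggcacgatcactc
Tnnt2: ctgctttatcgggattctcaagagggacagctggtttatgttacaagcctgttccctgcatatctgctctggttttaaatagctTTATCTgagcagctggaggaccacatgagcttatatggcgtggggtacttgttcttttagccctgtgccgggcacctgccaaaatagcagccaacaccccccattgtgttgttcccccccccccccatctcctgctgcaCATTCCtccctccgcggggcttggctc
The Myl7 stretch holds a CArG box beside a TEAD motif, and the Tnnt2 stretch a GATA and a TEAD motif. The CDX motif TTTATG was not marked here, and both stretches hold it on 1 of the strands.

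Skeletal muscle and respiratory genes were lower in intestine with the heart genes. Of 18 measured skeletal muscle markers 12 were at least 4-fold lower. Myog, the differentiation factor of muscle, stood at 0.23 in esophagus, −4.97 in stomach and −5.72 in intestine. Tracheal and lung genes had 7 of 15 members at least 4-fold lower and a median of −1.85, which turned to 0.22 over the members measured on both arrays. Wnt2, a ligand of lung mesenchyme, stood at 1.71, −2.38 and −4.78, and the surfactant gene Sftpc was at least 34.7-fold lower. Their part in the difference between the organs was not tested. Smooth muscle genes differed less, with a median of −1.03 that turned to 0.05 on the spike-in scale. Myh11, the smooth muscle myosin, was the member at least 4-fold lower, at 1.28 in esophagus, −1.62 in stomach and −1.79 in intestine, and Acta2 differed by −0.93, or by 0.15 on the spike-in scale.

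Hox genes separated by group number. In groups 1 to 5 0 of 15 measured genes was at least 4-fold apart, with a median of 0.35. In groups 6 to 8, 5 of 7 exceeded esophagus at least 4-fold (median 2.98), and in groups 9 to 13, 7 of 13 (median 2.58), against 1.75% of all genes. Only 5 members of each were measured on both arrays, with medians of 2.41 and 1.93 over these. After normexp correction the medians were 1.44 and 0.99. Hoxa7 stood at 2.38 in intestine, 4.36 in stomach and −0.61 in esophagus, and Hoxb7 at 2.04, 2.51 and −1.65. Both were higher in stomach than in intestine. Hoxc9 stood at 1.19 in intestine and −3.81 in esophagus and was dim in stomach. Hoxa11 and Hoxa10 were measured in intestine alone, at 1.04 and −0.30, which puts Hoxa11 above esophagus by at least 115-fold and Hoxa10 by at least 45.4-fold. In groups 6 to 8 Hoxa6 (−0.06) was the 1 member within 2-fold, and in groups 9 to 13 Hoxb9 (−0.83) and Hoxa9 were, while Hoxd12 and Hoxb13, measured on the intestine array alone, had bounds under 2-fold.

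**Figure D4:**
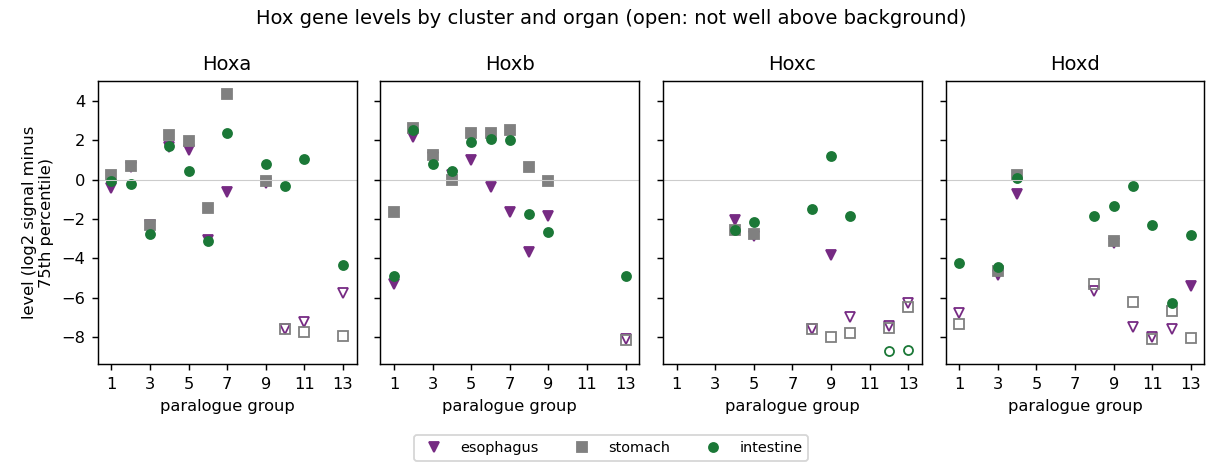
Level of each Hox gene (log2 signal minus the 75th percentile) by paralogue group in the 4 clusters, for esophagus (triangles), stomach (squares) and intestine (circles). Open symbols are not well above background. The organs lie close together in groups 1 to 5, stomach and intestine stand above esophagus in Hoxa7 and Hoxb7, and intestine stands alone in Hoxa10, Hoxa11 and Hoxd10.

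Transcription factors of the gut mesenchyme divided between the organs. Of 43 measured, 4 stood at least 4-fold above esophagus and 11 at least 4-fold below it. The median difference was −0.56, which turned to 0.52 on the spike-in scale. Hand1, a basic helix-loop-helix factor, stood at 2.75 in intestine and −3.07 in stomach and was dim in esophagus. Mab21l2 stood at 2.64 in intestine, −3.31 in stomach and −4.68 in esophagus. On the other side Prrx1, a homeobox factor of mesenchyme, stood at 3.01 in esophagus, −0.09 in stomach and −1.81 in intestine. Osr1 stood at 4.25, 3.19 and −0.25, high in both foregut organs, and Barx1, the homeobox factor of stomach mesenchyme, at 0.87, 4.43 and −4.39. Foxf1 and Foxf2, targets of hedgehog in gut mesenchyme, differed by −0.56 and −0.13. Among matrix genes, 9 of 42 were lower by 4-fold or more and 1 higher, with Tnc at −4.39 and Smoc1 at 2.97. Their median of −0.71 turned to 0.37 on the spike-in scale, and that of the collagens from −0.33 to 0.75. The type I collagen genes Col1a1 (−1.66) and Col1a2 (−1.85) were lower in intestine, and Col3a1 differed by 0.46.

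Signalling genes were opposed within families. Ihh, the hedgehog ligand of intestinal epithelium, stood at −1.21 in intestine, −0.67 in stomach and −5.29 in esophagus, 17.0-fold apart, whereas Shh differed by 0.22, the receptor Ptch1 by −1.76 and the target Gli1 by −0.12. Of 19 Wnt ligands and R-spondins, 7 were at least 4-fold lower in intestine and 1, Wnt16, was higher. Rspo2, which amplifies Wnt signals, stood at −0.05 in esophagus, −2.47 in stomach and −4.76 in intestine, and its receptor Lgr5 at −1.07, −1.74 and −3.91. Among the antagonists Sostdc1 (−4.93) and Sfrp2 (−3.10) were lower and Dkk2 (3.32) was higher. The target Lef1 differed by −3.11 and Axin2 by −0.19.

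The activin subunit genes Inhba and Inhbb were lower in intestine, Inhba at 2.09 in esophagus, −0.88 in stomach and −2.87 in intestine. Fst, which binds activin, stood the other way at 1.78 in intestine, 0.84 in stomach and −0.53 in esophagus. The BMP regulator Bmper was lower (−3.57), while Bmp4 differed by 1.31. Klb, a co-receptor for endocrine FGFs, was higher (3.51) and the FGF inhibitor Spred1 lower (−2.23), and the ligand Fgf10 differed by 0.27. In the retinoid group the degrading enzyme Cyp26a1 differed by −3.95 and the synthesising enzyme Aldh1a2 by 1.87. None of 24 Notch genes was at least 4-fold apart, where 1.75% of all genes were higher and 3.70% lower by that much.

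**Figure D5:**
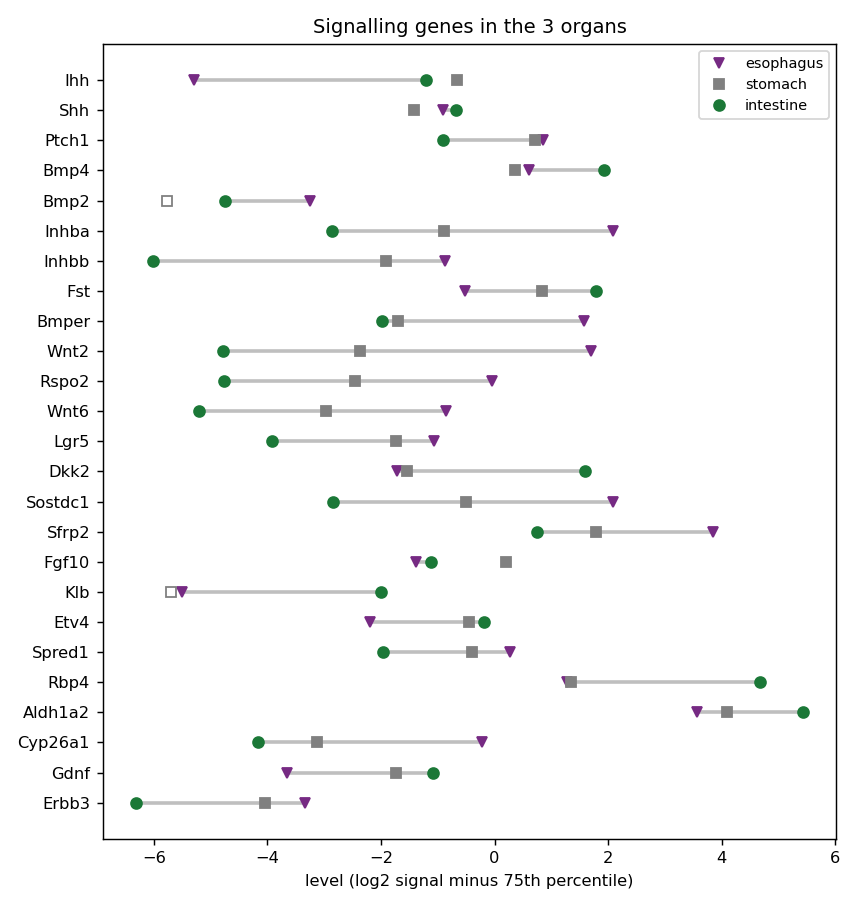
Level of 25 signalling genes in esophagus (triangles), stomach (squares) and intestine (circles), as log2 signal minus the 75th percentile, with the line joining esophagus and intestine. Ihh, Dkk2, Klb and Rbp4 lie to the right in intestine, and Wnt2, Rspo2, Inhba and Sostdc1 to the left.

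Some nerve genes were higher in intestine. Of 27 measured neuron markers 3 were at least 4-fold higher and none was that much lower. The median difference was 0.87. Cartpt, a neuropeptide gene, stood at 1.82 in intestine, 1.95 in stomach and −1.89 in esophagus, and Isl2 at 1.63, 2.16 and −1.31. Neurofilament gene Nefm differed by −0.33. Gdnf, the mesenchymal ligand that draws enteric neural crest into the gut, stood at −1.09, −1.73 and −3.66, while its receptor Ret differed by 0.68. Erbb3, a receptor of crest and glia, was lower (−2.97). Syt10, a synaptotagmin, had the largest difference measured on both arrays, at 5.40 in intestine, 3.19 in stomach and −4.49 in esophagus, 944-fold apart. None of the other 12 measured synaptotagmins was at least 4-fold apart, where 1.75% of all genes were higher and 3.70% lower by that much.

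Blood and vessel genes differed little between the organs. The embryonic globin gene Hbb-y differed by 0.02 and Hba-x by 0.04, and probes of globin genes may not tell near-identical copies apart. The median was 0.44 over 20 erythroid genes, 0.19 over 24 endothelial genes and 0.43 over 19 macrophage genes, and of these only Tfrc (2.07) and Prox1 were at least 4-fold apart. On the spike-in scale these medians were 1.52, 1.26 and 1.51, against 1.18 over all genes. No cell cycle gene of 32 was at least 4-fold apart (median 0.56). Over all genes 1.75% were higher and 3.70% lower by 4-fold or more, so lists of this size would hold few such genes. Among reference genes Gapdh differed by 0.50 and Actb by −1.98.

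The remaining genes with the largest differences were of mixed kinds. Tdh, threonine dehydrogenase, stood at 3.05 in intestine, −1.16 in stomach and −2.91 in esophagus. Colec10, a liver collectin, stood at 4.17, 2.49 and −1.51. The serum amyloid genes Saa1, Saa2 and Saa3 were higher by 4.70, 5.69 and 5.20, and as close relatives they may share signal. Cpa1, a pancreatic carboxypeptidase, differed by 4.48 while the pancreatic factors Nkx6-1 and Mnx1 differed by −4.35 and −3.0. Nepn was dim in esophagus and stood higher in stomach (3.18) than in intestine (1.08). Cyp2c40 (4.63), St8sia3 (4.60) and Gpr20 (4.31) were also higher. On the lower side were Mybpc3 (−7.55), Cox6a2 (−6.80), Tnnc1 (−6.42), Myl4 (−6.12), Nppa (−6.01), Ankrd1 (−5.93) and Hspb2 (−5.45), which are heart or muscle genes, as is the bound for Myh8 (at least 264-fold), and Neto1 (−5.93), which encodes a neural membrane protein.

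The stomach array did not enter the difference or the 4-fold cut. It did help settle which probe stood for a gene, since that was the probe with the highest mean level over all arrays, stomach included. Every probe kept also had a value on all arrays. The stomach positions are therefore a description and not an independent check. Of the 253 genes at least 4-fold higher in intestine, the stomach level lay between the organs in 147, nearer to esophagus in 93 and nearer to intestine in 54. It lay below both in 47 and above both in 19, and 40 were dim in stomach and esophagus alike. Of the 535 lower genes it lay between in 396, nearer to esophagus in 216 and nearer to intestine in 180. It lay below both in 34 and above both in 33, and 72 were dim in stomach and intestine alike. For these counts, and those of the liver and heart markers, a level under its array's lowest level well above background was raised to it. Those lowest levels were −5.81 in esophagus, −5.84 in stomach and −6.97 in intestine. A dim stomach level could thus count as between, as in Ankrd1 (0.04 in esophagus, −7.85 in stomach and −5.89 in intestine). Where another probe of the gene was measured on both arrays, every other probe had the same sign in 30 of 36 higher genes and in 113 of 133 lower genes.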

How the data were processed

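Per the file headers, the spot intensity values come from Agilent Feature Extraction (version 10.5.1.1) after background subtraction and detrending. The deposited value table holds log2 values, and 99.8% to 99.9% of its probes lay within 0.01 log2 units of the log2 signal minus the 75th percentile, after removal of 1 constant per array. Of 45018 spots on each array 43379 were not controls, and leaving out spots marked as outliers (111, 70 and 77 in esophagus, stomach and intestine) kept 41112 probes. The processed signal was taken as log2 minus each array's 75th percentile. All arrays lay on 1 slide and in 1 scan. Probes were named through the array's accessions and a RefSeq gene table (GRCm38.p6), 24334 with 1 symbol and 16778 with none, covering 16994 genes. Each gene was taken by its brightest probe, the one with the highest mean level over all arrays, stomach included. The array design cites an older build, so no position of a probe was used.

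A gene entered when either organ's array had its probe well above background. Genes at least 4-fold apart were counted, with no test. In each direction the text names 15 genes by size of measured difference and 5 by size of bound, without clones or predicted genes, and members of 54 gene lists (1043 of 1099 genes had a named probe). The members, the lists and the motifs were chosen with earlier results of these data known. A few genes are not reported here. They are counted in their lists but not named.

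The 250 bases before a start were searched for 24 motifs. Besides those whose shares in the higher and lower genes are printed, these were the CArG box, a strict MEF2 motif, palindromic forms of GTTAAT (full and core), a stricter HNF4 motif (CAAAGTCCA), and motifs of C/EBP (TTGCGCAA), HOX (TTTATGG), p63 and a longer T-box form (AGGTGTGA). Both strands were searched, several motifs overlap (the HOX motif holds the CDX motif, for example), and a match is a description only. The alternatives were 9 other settings, among them normexp background correction of the median signals in limma 3.58.1 with an offset of 50. The steps were tested on simulated data with known fold changes. Python 3.11.15, pandas 2.3.3 and numpy 2.4.6 were used.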

Additional observations from a re-analysis of the deposited data

How the results depend on the processing

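No paired analysis was possible because each organ has 1 array and every title carries the same replicate number. The count of genes at least 4-fold higher was 253, and that of genes at least 4-fold lower 535. The higher count moved by more than 1.5 times with median centring (455), spike-in scaling (1445), normexp correction (93) and no filter on dim probes (396), and the lower count with median centring (296), spike-in scaling (180) and normexp correction (214). Quantile normalization gave 367 and 374, so that the share of higher among all calls went from 32.1% to 49.5%, against 60.6% with centring and 88.9% with spike-in scaling. The deposited table (248 and 538), the median over probes (235 and 512) and outlier spots kept (256 and 542) stayed close, and requiring both arrays gave 175 and 420. The cause of these shifts was not tested, except that the last leaves fewer genes.

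Of 230 named genes or list members at least 4-fold apart, 208 remained so with quantile normalization, 196 with centring, 171 with spike-in scaling and 141 after normexp correction. Serpinc1 turned to 0.60 as the median over its probes, the trachea and lung median to 0.22 over genes measured on both arrays, and the smooth muscle median to 0.051 with spike-in scaling. Signal near background limits the bounds, since the lowest signal well above background was 7.03 in esophagus and 8.17 in intestine.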
